A study of Mus musculus with 12 samples.

Results

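This account covers 39 genes of sugar burning and of the response to low oxygen: enzymes of glycolysis, carriers of glucose and lactate, and genes switched on by the transcription factor HIF-1. They were chosen by name, as the rows of the deposited table that carry their symbols, and make up 39 of its 21881 genes. Of these, 37 passed the filter on low values, an FPKM of 1 or more in 3 or more libraries, which 11801 genes passed in all. Car9 and Egln3 did not, and their levels are given without a test. Values are FPKM, fragments per kilobase of transcript scaled to a library's mapped fragments, so levels can be set side by side between genes. This is limited for genes with near-identical copies in the genome, named below with Gapdh.

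The cells were mouse mesenchymal stem cells of strain C57BL/6, fibroblast-like cells of bone marrow, grown as immortalized lines that each came from a single cell. KO cells were Dicer -/- and so lacked the nuclease that cuts most microRNAs from their precursors, while WT cells were Dicer f/f, with floxed alleles that were still intact. KO_let-7g cells were KO cells given a synthetic let-7g duplex, KO_siNr6a1 cells were KO cells given an siRNA against the nuclear receptor gene Nr6a1, and KO_siCtrl and WT_siCtrl cells received a nontargeting siRNA. All were transfected at 20 nM and harvested after 48 h, with 3 libraries in each of the 4 groups, and all groups were grown in the same serum-containing medium. The labels state neither the oxygen level nor whether each library had a culture of its own, so the p-values speak only for the scatter among these libraries, part or all of which may be technical. With monoclonal lines, an effect of the genotype and a difference between clones cannot be told apart, and in bulk RNA fewer cells of a kind and less RNA per cell cannot be told apart.

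Glycolysis breaks glucose down to pyruvate in a chain of enzymes, most of which exist as several paralogs with tissue-typical use. Pyruvate is either burned in mitochondria, a step that pyruvate dehydrogenase kinases hold back, or reduced to lactate by lactate dehydrogenase and carried out of the cell. When oxygen is scarce, the HIF-1 alpha protein escapes hydroxylation by the prolyl hydroxylases (Egln genes) and by the asparaginyl hydroxylase FIH (Hif1an), and HIF-1 then raises many genes of this chain. Mesenchymal stem cells are known for a strongly glycolytic metabolism and for a low-oxygen niche in the marrow. HIF-1 is regulated mostly at the protein level, which RNA does not show.

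The knockdown label held for Nr6a1, which stood at 3.87, 5.38 and 3.39 FPKM in KO_let-7g and 3.43, 4.30 and 3.31 in KO_siNr6a1, against 12.6, 12.3 and 10.2 in KO_siCtrl, and at 1.16, 0.945 and 1.25 in WT_siCtrl libraries. Dicer1 averaged 3.86 ± 0.214 FPKM in KO_siCtrl and 6.58 ± 1.45 in WT_siCtrl libraries (SD, n = 3 each, for all means here), so RNA of the gene was still counted in KO cells. FPKM of a whole gene does not show its deleted part, so Dicer1 does not check the genotype label. Relative depth, read from the steps of low values, was 1.34 to 1.82 in KO_let-7g, 1.13 to 1.565 in KO_siNr6a1, 1 to 1.31 in KO_siCtrl and 1.11 to 1.29 in WT_siCtrl, and every KO_let-7g library was thus deeper than every KO_siCtrl library; the part of depth in the results was not tested. Of 10 mesenchymal stem cell markers, 9 reached a mean FPKM of 1 in every group, with summed levels of 605 to 721, and Thy1 was at or near 0. Single markers moved under this sum. Of the 9 tested, 4 were called higher and 4 lower in KO_siCtrl than in WT_siCtrl, where 29.1% and 25.2% of all tested genes were. Against KO_siCtrl, 2 (22.2%) were higher and 1 (11.1%) lower with let-7g, where 27.5% and 18.2% of all tested genes were. With the Nr6a1 siRNA, 1 (11.1%) was higher and 2 (22.2%) lower, where 13.2% and 16.3% of all were. Markers of other cells were low but moved with the groups. Blood markers summed to 4.34 to 6.88 in KO_let-7g, 1.61 to 1.77 in KO_siNr6a1, 1.32 to 2.33 in KO_siCtrl and 1.13 to 1.80 in WT_siCtrl, mostly Cd68, with Ptprc and Itgam near 0. Neural markers summed to 6.65 to 9.21 in KO_let-7g, 2.71 to 3.11 in KO_siNr6a1, 2.07 to 2.81 in KO_siCtrl and 7.14 to 9.22 in WT_siCtrl, mostly Tubb3 in KO_let-7g and Map2 in WT_siCtrl. Epithelial markers summed to 0.570 to 1.15 in KO_let-7g, 0.449 to 0.614 in KO_siNr6a1, 1.80 to 3.02 in KO_siCtrl and 1.74 to 2.77 in WT_siCtrl. Endothelial ones summed to at most 0.272. Skeletal muscle markers, nearly all Acta1, summed to 17.0 to 18.9 in KO_let-7g, 30.5 to 30.9 in KO_siNr6a1, 24.5 to 31.7 in KO_siCtrl and 34.1 to 56.2 in WT_siCtrl.

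**Figure D1:**
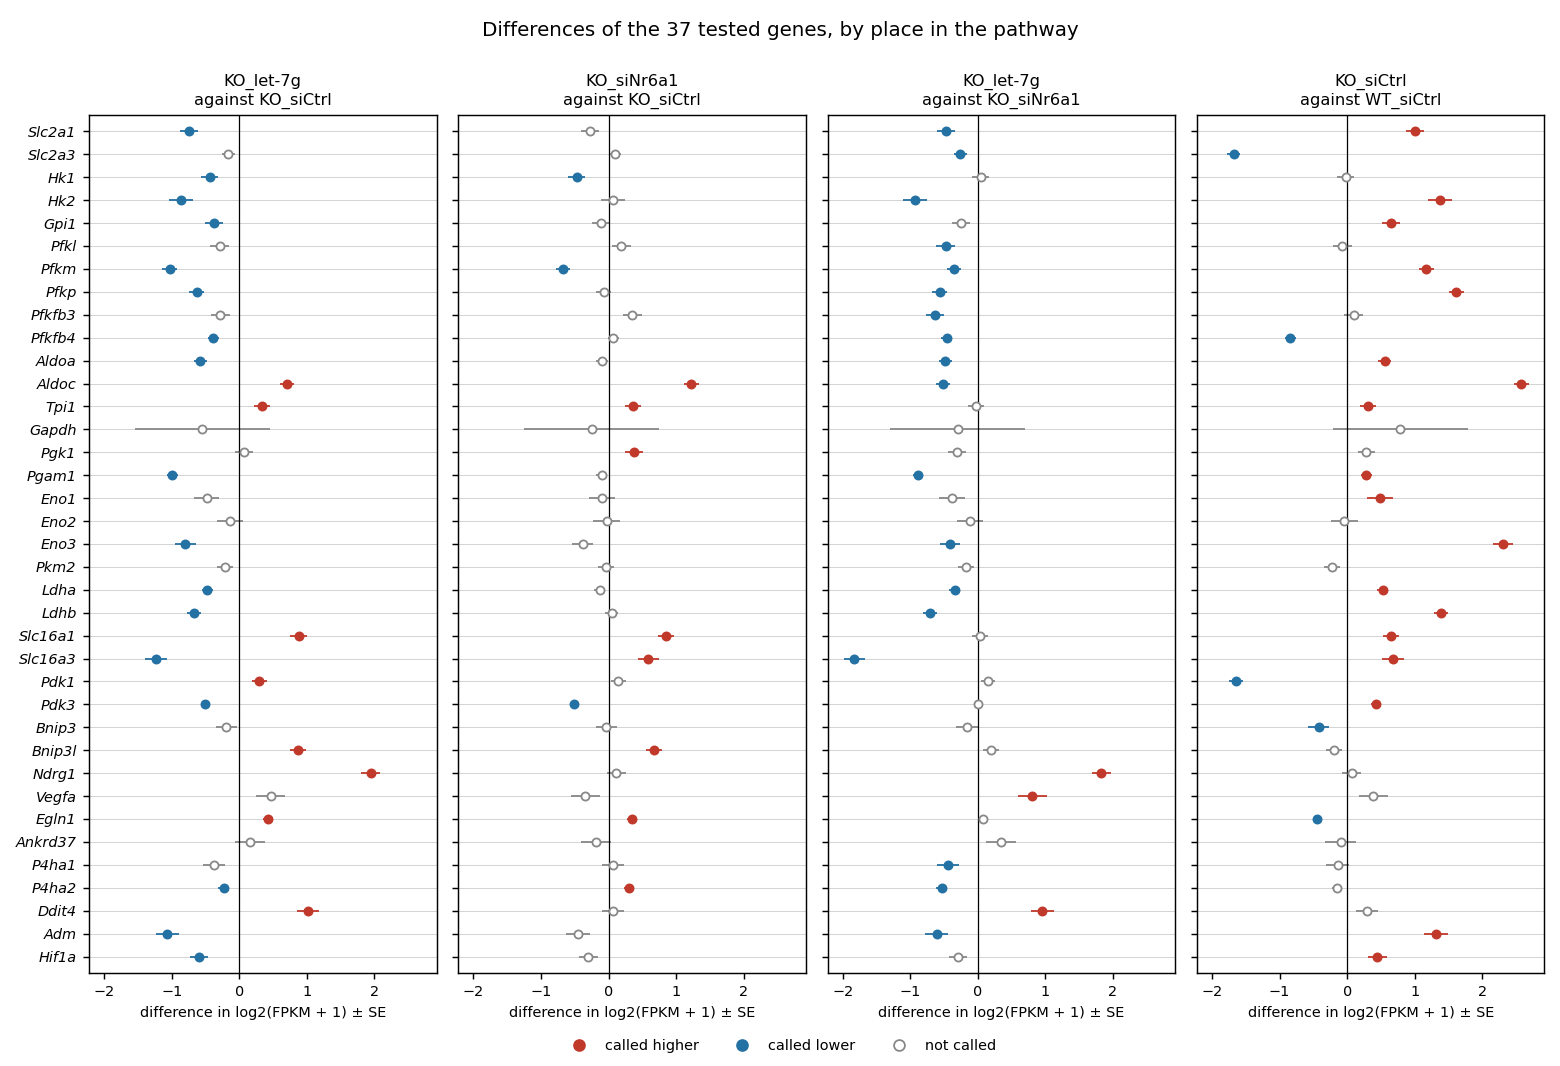
Difference in log2(FPKM + 1) with its standard error (horizontal bars) for each of the 37 tested genes in 4 comparisons. Filled red and blue points were called higher and lower at an adjusted p under 0.05, open points were not called. In KO_let-7g against KO_siCtrl 17 genes lie lower and 8 higher, in KO_siNr6a1 against KO_siCtrl 3 and 8, in KO_let-7g against KO_siNr6a1 18 and 3, and in KO_siCtrl against WT_siCtrl 5 and 18.

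In Dicer -/- cells under the control siRNA, many genes of the glycolytic chain were more abundant than in Dicer f/f cells. Of the 37 tested genes, 18 (48.6%) were higher in KO_siCtrl than in WT_siCtrl, where 29.1% of all 11801 tested genes were, and 5 (13.5%) were lower, against 25.2% of all. The median difference of the 37 was 0.31 on the log2(FPKM + 1) scale, on which all differences are given with their standard errors, beside 0.04 over all tested genes. By place in the pathway, 7 of 11 genes of hexose phosphorylation and early glycolysis rose and 1 fell, 3 of 7 of late glycolysis rose, and 5 of 6 of lactate and pyruvate fate rose and 1 fell. Slc2a3, counted as lower, and Aldoc, counted as higher, passed the filter through WT or KO libraries alone and had to differ. Of the 9 tested hypoxia response genes, 1 (Adm) rose and 1 (Bnip3) fell. Calls are by limma with Benjamini-Hochberg adjustment over all tested genes at 0.05, here and below, and 18 of the 23 held under every alternative in which the gene was tested. The 5 lower calls became 3 without WT_siCtrl replicate 0, without WT_siCtrl replicate 1 or without replicate 0 of every group. In these fits Bnip3 was no longer called, and Slc2a3 no longer passed the filter and was not tested. Blocking on the replicate number, which pairs the libraries in these data, added Gapdh, Pgk1, Vegfa and Ddit4 as higher and Pkm2 and Bnip3l as lower, at adjusted p between 0.00017 and 0.0276.

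With let-7g added to KO cells, the balance lay the other way. The blood marker Cd68 (1.26 ± 0.17) and the neural markers Tubb3 (1.44 ± 0.15) and Map2 (0.35 ± 0.10) were higher in the same libraries (adjusted p of at most 0.0176). The only epithelial marker tested was called lower (-0.88), as was the muscle marker Acta1. The part of all these markers in the change of the set was not tested. Of the 37, 17 (45.9%) were lower in KO_let-7g than in KO_siCtrl, where 18.2% of all tested genes were, and 8 (21.6%) were higher, against 27.5% of all. Their median difference was -0.37, beside 0.08 over all tested genes. Early glycolysis had 7 of 11 lower and 2 higher, late glycolysis 2 of 7 lower, lactate and pyruvate fate 4 of 6 lower and 2 higher, and the hypoxia response 2 of 9 lower and 3 higher. Of the 25 calls, 20 held under every alternative. The block added Pfkl, Pfkfb3, Gapdh, Eno1, Pkm2, Bnip3 and P4ha1 as lower and Vegfa as higher, at adjusted p between 0.00155 and 0.0457. Median-of-ratios scaling turned 3241 higher and 2142 lower genes of the whole table into 2639 and 2712, and quantile scaling into 2600 and 2615. The 37 genes then split into 6 higher and 19 lower, and 6 higher and 18 lower.

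With knockdown of Nr6a1 the share of genes called was similar in the set and in the whole table. In KO_siNr6a1 against KO_siCtrl, 8 of the 37 (21.6%) were higher, where 13.2% of all tested genes were, and 3 (8.11%) were lower, against 16.3% of all. Together 29.7% of the set was called, beside 29.4% of all tested genes. The medians were -0.03 for the 37 and -0.06 for all tested genes. Only 5 of the 11 calls held under every alternative, namely Aldoc, Slc16a1 and Bnip3l as higher and Pfkm and Pdk3 as lower. Those that did not were Slc16a3, Pgk1, Tpi1, Egln1 and P4ha2 as higher and Hk1 as lower. The block gave 9 higher and 8 lower, adding Slc2a1, Eno3, Vegfa, Adm and Hif1a as lower and Pfkfb3 as higher, at adjusted p between 0.00304 and 0.0368. Leaving out KO_siNr6a1 replicate 0 left 5 higher calls, leaving out KO_siNr6a1 replicate 1 or KO_siCtrl replicate 1 left 4, and leaving out replicate 0 of every group left 3, with 2084 genes of the whole table called against 3474. Under median-of-ratios scaling the whole table had 1854 higher and 1441 lower genes, against 1556 and 1918 in the values as deposited. Both treatments are set against the same KO_siCtrl libraries, so their differences are not independent of each other or of KO_siCtrl against WT_siCtrl.

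The ubiquitous glucose carrier GLUT1 is encoded by Slc2a1, and only RNA was measured here, not uptake. Slc2a1 had 45.98, 46.9 and 58.8 FPKM in KO_let-7g, 68.6, 70.04 and 71.02 in KO_siNr6a1, 78.6, 77.9 and 98.8 in KO_siCtrl and 42.3, 35.5 and 48.7 in WT_siCtrl libraries. Every KO_siCtrl library lay above every library of the other groups, by 0.999 ± 0.13 over WT_siCtrl (adjusted p = 8.26e-05). KO_let-7g fell by 0.74 ± 0.13 (adjusted p = 0.00099), with all its libraries below all KO_siCtrl libraries. KO_siNr6a1 differed by -0.27 ± 0.13, which did not pass the test without the block (adjusted p = 0.149) and did with it (adjusted p = 0.0237).

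Slc2a3 encodes GLUT3, a high-affinity carrier best known from neurons, and went against its paralog. Its libraries had 0.359, 0.255 and 0.260 FPKM in KO_let-7g, 0.474, 0.521 and 0.646 in KO_siNr6a1, 0.431, 0.412 and 0.495 in KO_siCtrl and 3.52, 3.30 and 4.13 in WT_siCtrl libraries. It was low in every KO group and higher in every WT_siCtrl library, with KO_siCtrl at -1.68 ± 0.09 against WT_siCtrl, and at -2.78 on the log2(FPKM + 0.1) scale. It reached an FPKM of 1 in only 3 libraries, all WT_siCtrl, and so passed the filter through the group where it is high. A difference from that group is built into its being tested, and its values are given as a description. The RNA of Slc2a3 is the only one of the 39 with the strongest kind of let-7 site in its 3′ UTR, yet the difference between KO_let-7g and KO_siCtrl was -0.16 ± 0.09 (adjusted p = 0.18), at levels below 0.5 FPKM in both groups.

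The sequences behind that statement are the mature let-7g strand, whose seed (bases 2 to 8, in capitals) pairs with target RNAs, and the strongest matches in 3′ UTRs of the set, with the paired bases in capitals. An 8mer is CTACCTCA, a 7mer-m8 is CTACCTC without the final A, and a 7mer-A1 is TACCTCA without the first C. The microRNA is from RefSeq (GRCm38.p6, chr9:106178846-106178867, plus strand), and the 3′ UTRs are from GENCODE transcripts of GRCm38, 1 for each gene.
let-7g-5p: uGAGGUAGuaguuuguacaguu
Slc2a3 8mer: gttggaaggctCTACCTCActacagctagg
Aldoc 7mer-m8: cataccaaagtCTACCTCcatgtgtgcgac
An 8mer or 7mer-m8 stood in 2 of the 39 genes (5.13%), against 10.3% of the 10218 tested genes with a 3′ UTR. None of the 17 genes that fell with let-7g had one, a list too short for that count to be read against 10.3%, and Aldoc, which has one, rose. Weaker 7mer-A1 matches occurred in Slc2a3 and in 2 of the genes that fell, Hk2 with 2 and P4ha2 with 1. A match is a description of the sequence and not a shown site, and no match says only that these letters are not in this 3′ UTR.

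Hexokinases trap glucose in the cell as glucose 6-phosphate. Hk1, the widespread form, averaged 45.9 ± 4.41 FPKM in KO_let-7g, 44.5 ± 2.09 in KO_siNr6a1, 62.3 ± 5.87 in KO_siCtrl and 63.9 ± 11.1 in WT_siCtrl libraries. It fell by 0.43 ± 0.13 with let-7g and by 0.47 ± 0.13 with the Nr6a1 siRNA (adjusted p = 0.0155 and 0.0159), while KO_siCtrl was not called against WT_siCtrl (-0.02 ± 0.13). Both of these falls were lost without KO_siCtrl replicate 2, the first also without KO_let-7g replicate 1 and the second without KO_siNr6a1 replicate 2 (adjusted p up to 0.0957). Hk2, the inducible form of muscle, fat and tumours, had 9.76, 7.42 and 9.95 FPKM in KO_let-7g, 19.6, 16.9 and 17.9 in KO_siNr6a1, 17.2, 15.8 and 18.6 in KO_siCtrl and 8.64, 4.82 and 5.13 in WT_siCtrl libraries. The 3 KO_siCtrl libraries were all above the 3 WT_siCtrl libraries, by 1.38 ± 0.18 (adjusted p = 6.63e-05). The KO_let-7g libraries all fell below the KO_siCtrl ones (-0.87 ± 0.18, adjusted p = 0.00227), while KO_siNr6a1 overlapped KO_siCtrl.

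Glucose phosphate isomerase, encoded by Gpi1, makes the fructose phosphate that feeds the committed step. It had 142, 111 and 142 FPKM in KO_let-7g, 171, 149 and 149.5 in KO_siNr6a1, 181, 143 and 187 in KO_siCtrl and 115, 93.6 and 115 in WT_siCtrl libraries. Every KO_siCtrl library was above every WT_siCtrl library, and KO_siCtrl was higher than WT_siCtrl by 0.65 ± 0.13 (adjusted p = 0.00161). The fall with let-7g (-0.37 ± 0.13, adjusted p = 0.0406) was lost without KO_let-7g replicate 1, KO_siCtrl replicate 0 or KO_siCtrl replicate 2 (adjusted p up to 0.156). Quantile and upper quartile scaling also ended it.

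Phosphofructokinase commits sugar to glycolysis and has liver (Pfkl), muscle (Pfkm) and platelet (Pfkp) subunits. Pfkl lay between 58.4 and 98.5 FPKM in all 12 libraries and was not called in KO_siCtrl against WT_siCtrl (-0.07 ± 0.14). Pfkm had 42.8, 40.9 and 39.1 FPKM in KO_let-7g, 50.1, 56.9 and 50.8 in KO_siNr6a1, 83.2, 78.8 and 92.1 in KO_siCtrl and 32.6, 35 and 44.02 in WT_siCtrl libraries. KO_siCtrl stood apart from all the other groups, at 1.17 ± 0.11 against WT_siCtrl, and both treatments fell from it, by 1.03 ± 0.11 with let-7g and by 0.68 ± 0.11 with the Nr6a1 siRNA (adjusted p = 5.31e-06, 2.95e-05 and 0.00104). Pfkp had 26.4, 23.8 and 24.6 FPKM in KO_let-7g, 41.1, 35.3 and 35.6 in KO_siNr6a1, 41.7, 36.6 and 39.3 in KO_siCtrl and 13.5, 10.05 and 12.9 in WT_siCtrl libraries. It was higher in every KO library than in any WT_siCtrl library, by 1.62 ± 0.11 in KO_siCtrl (adjusted p = 4.82e-07), fell in part with let-7g (-0.63 ± 0.11, adjusted p = 0.000784) and was not called with the Nr6a1 siRNA (-0.07 ± 0.11).

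The bifunctional enzymes Pfkfb3 and Pfkfb4 set the level of fructose 2,6-bisphosphate, the activator of phosphofructokinase. Pfkfb4 had 2.32, 2.66 and 2.63 FPKM in KO_let-7g, 3.73, 3.93 and 3.92 in KO_siNr6a1, 3.58, 3.56 and 3.72 in KO_siCtrl and 6.75, 7.48 and 7.68 in WT_siCtrl libraries. It was lowest in KO_let-7g and highest in WT_siCtrl with no overlap between these and KO_siCtrl, at -0.84 ± 0.08 in KO_siCtrl against WT_siCtrl (adjusted p = 7.7e-06) and -0.39 ± 0.08 in KO_let-7g against KO_siCtrl (adjusted p = 0.00268). Pfkfb3 had 6.33, 7.63 and 6.14 FPKM in KO_let-7g, 10.4, 12.2 and 10.2 in KO_siNr6a1, 7.89, 9.53 and 7.62 in KO_siCtrl and 7.71, 9.34 and 6.36 in WT_siCtrl libraries, and was lower with let-7g than with the Nr6a1 siRNA by 0.63 ± 0.14 (adjusted p = 0.00402).

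**Figure D2:**
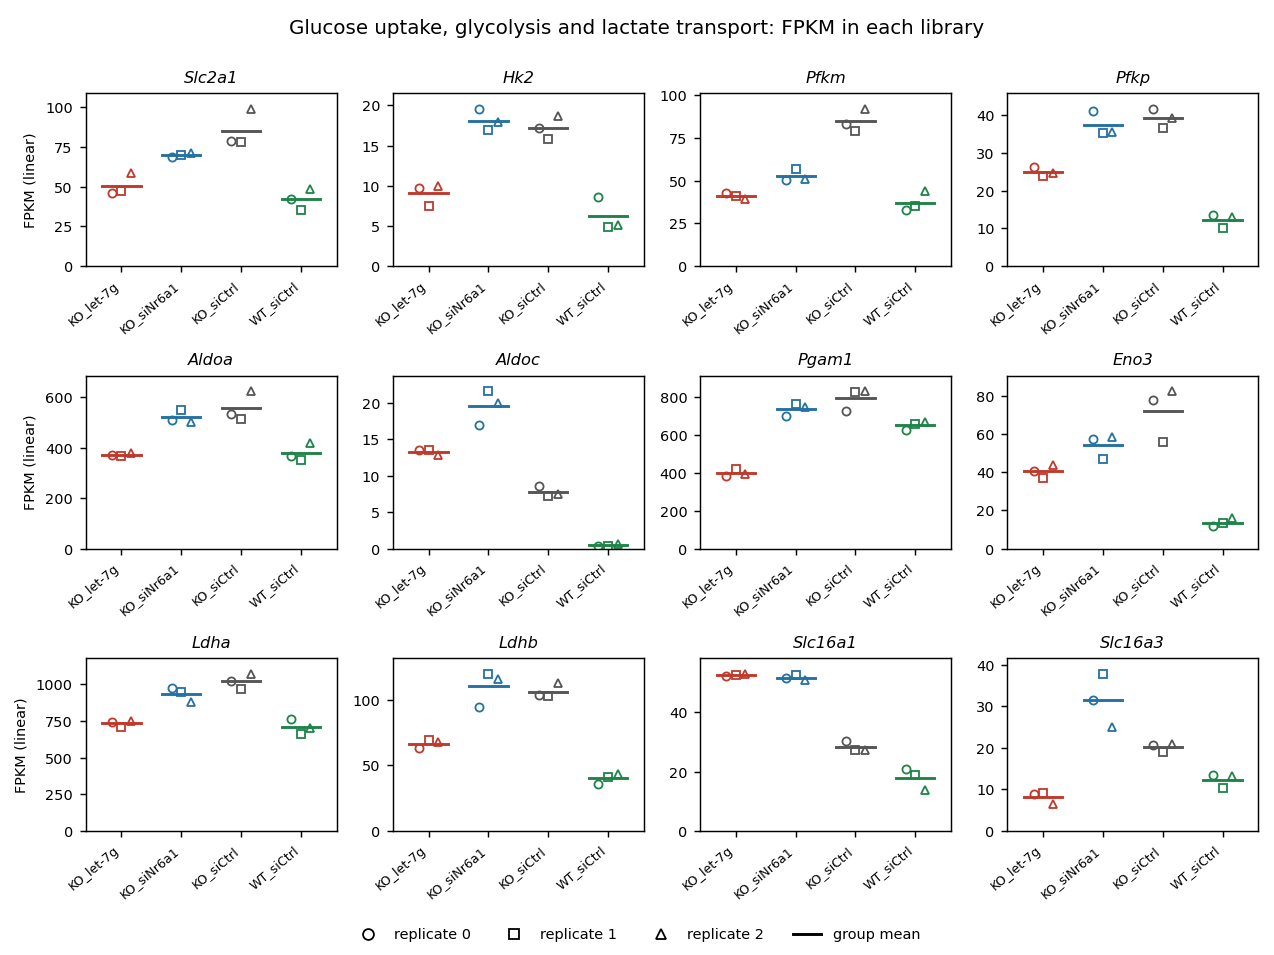
FPKM on a linear axis from 0 for 12 genes, with 1 symbol per library (circle, square and triangle for replicates 0, 1 and 2) and the group mean as a line, in KO_let-7g, KO_siNr6a1, KO_siCtrl and WT_siCtrl. Slc2a1, Pfkm and Eno3 are highest in KO_siCtrl, Slc16a1 is high in both treatments, and Slc16a3 ranges from 6.39 to 9.08 in KO_let-7g and from 25.0 to 37.8 in KO_siNr6a1.

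Aldolase splits fructose bisphosphate, and Aldoa, the muscle and general form, was the main one. Aldoa had 369.8, 368 and 378 FPKM in KO_let-7g, 509.9, 547 and 501 in KO_siNr6a1, 534, 514 and 622 in KO_siCtrl and 368, 349.7 and 419 in WT_siCtrl libraries. It rose in KO_siCtrl by 0.55 ± 0.09 over WT_siCtrl (adjusted p = 0.000449), and with let-7g it fell by 0.58 ± 0.09 (adjusted p = 0.000507), to levels that overlapped WT_siCtrl. Aldoc, the brain form, had the largest difference of the 37 between KO_siCtrl and WT_siCtrl, with 13.5, 13.5 and 12.8 FPKM in KO_let-7g, 16.99, 21.6 and 19.97 in KO_siNr6a1, 8.57, 7.28 and 7.45 in KO_siCtrl and 0.368, 0.402 and 0.641 in WT_siCtrl libraries. KO_siCtrl was 2.58 ± 0.11 above WT_siCtrl, where all libraries were below 1 FPKM. It passed the filter through its 9 KO libraries alone, so this difference too is a description. It was higher again in both treatments than in KO_siCtrl with no overlap, let-7g by 0.71 ± 0.11 and the Nr6a1 siRNA by 1.22 ± 0.11 (adjusted p = 0.000388 and 4.26e-05), and let-7g less than the siRNA (-0.52 ± 0.11, adjusted p = 0.00346).

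Triose phosphate isomerase, Tpi1, which interconverts the products of the split, had 690.0, 578 and 658 FPKM in KO_let-7g, 738, 642 and 586 in KO_siNr6a1, 553, 447 and 528 in KO_siCtrl and 442, 369 and 416 in WT_siCtrl libraries. All libraries of both treatments were above all KO_siCtrl libraries, and these above all WT_siCtrl libraries. The difference was 0.31 ± 0.12 in KO_siCtrl against WT_siCtrl, 0.34 ± 0.12 in KO_let-7g against KO_siCtrl and 0.36 ± 0.12 in KO_siNr6a1 against KO_siCtrl (adjusted p = 0.0442, 0.0399 and 0.0415). Each call was narrow. The first was lost without replicate 0 or 2 of KO_siCtrl or replicate 1 or 2 of WT_siCtrl. The second was lost without replicate 0 or 2 of KO_let-7g or replicate 1 or 2 of KO_siCtrl, and the third without replicate 0 or 1 of KO_siNr6a1 or replicate 1 or 2 of KO_siCtrl (adjusted p up to 0.166 over all 3). Median-of-ratios and upper quartile scaling also ended the first 2 calls, and quantile scaling the second.

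Gapdh, the dehydrogenase that is often used as a stable reference transcript, split by replicate number more than by group. It had 658, 101 and 133 FPKM in KO_let-7g, 796, 154 and 135 in KO_siNr6a1, 934, 148 and 202 in KO_siCtrl and 555, 85.6 and 113 in WT_siCtrl libraries. In every group replicate 0 was far above the other two, 5.34 to 5.62 times their mean. Of the 11801 tested genes, 9 had replicate 0 more than 1 log2 unit above both others in every group, Gapdh and Rpl21 among them, and 10 had it as far below, most of them predicted genes. No other member of the 39 did so by this cut. By smaller gaps, replicate 0 was above both others in every group for Pfkp, Tpi1, Pgk1 and P4ha1, and below both for Pgam1 and Vegfa. The Gapdh levels of the groups therefore overlapped. Without the block no comparison of Gapdh was called, at 0.79 ± 0.999 in KO_siCtrl against WT_siCtrl (adjusted p = 0.533) and -0.55 ± 0.999 in KO_let-7g against KO_siCtrl (adjusted p = 0.687). Within replicate numbers the differences were alike, 0.75, 0.79 and 0.83 in KO_siCtrl against WT_siCtrl and -0.50, -0.55 and -0.59 in KO_let-7g against KO_siCtrl, and the blocked fit called both (adjusted p = 0.00017 and 0.00206). In KO_siNr6a1 against KO_siCtrl they were -0.23, 0.06 and -0.58. Gapdh, like Pgam1, Tpi1, Eno1, Ldha, Pgk1, Aldoa and Pkm2, has near-identical processed copies in the mouse genome, and how reads shared with them were counted is not stated in the labels or processing notes.

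**Figure D3:**
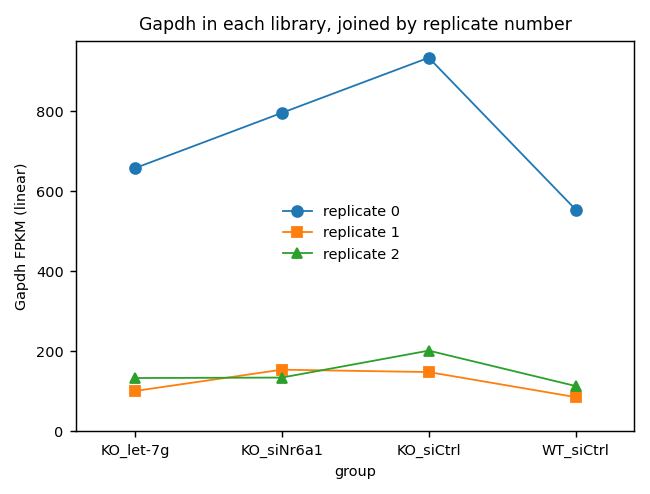
Gapdh FPKM in each of the 12 libraries on a linear axis from 0, with lines that join libraries of the same replicate number across the groups. Replicate 0 lies between 555 and 934 FPKM and the other libraries between 85.6 and 202.

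In late glycolysis, phosphoglycerate mutase Pgam1 was the enzyme that moved most with let-7g. Its libraries had 381, 418 and 394 FPKM in KO_let-7g, 700.5, 763 and 744 in KO_siNr6a1, 726, 823 and 828 in KO_siCtrl and 626, 656 and 669 in WT_siCtrl libraries. KO_let-7g was about 1 log2 unit below KO_siCtrl (-0.99 ± 0.08, adjusted p = 6.26e-06) and also below WT_siCtrl (-0.71 ± 0.08, adjusted p = 2.41e-05), with no overlap. The smaller rise of KO_siCtrl over WT_siCtrl (0.28 ± 0.08, adjusted p = 0.0112) was lost under upper quartile scaling and when only these groups were fitted (adjusted p up to 0.065). Pgk1, phosphoglycerate kinase, had 318, 264 and 312 FPKM in KO_let-7g, 406, 344 and 354 in KO_siNr6a1, 315, 257 and 279.8 in KO_siCtrl and 279, 217 and 206 in WT_siCtrl libraries, and rose with the Nr6a1 siRNA by 0.38 ± 0.13 (adjusted p = 0.0486), a call lost without any 1 of the KO_siNr6a1 libraries or without KO_siCtrl replicate 1 or 2 (adjusted p up to 0.152). Pkm2, pyruvate kinase of muscle and most growing cells, lay between 747 and 1197 FPKM and was not called in KO_siCtrl against WT_siCtrl (-0.22 ± 0.12) without the block.

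The enolases separated again by paralog. Eno1, the general form, averaged 238 ± 35.7, 314 ± 68.9, 332 ± 29.5 and 239.7 ± 56.7 FPKM in KO_let-7g, KO_siNr6a1, KO_siCtrl and WT_siCtrl. Its rise in KO_siCtrl over WT_siCtrl (0.49 ± 0.19, adjusted p = 0.0475) was lost without any 1 of the KO_siCtrl libraries or without WT_siCtrl replicate 1 or 2 (adjusted p up to 0.178), and it was not called with let-7g without the block (-0.49 ± 0.19). Upper quartile and median-of-ratios scaling also ended the rise. Eno3, the muscle form, had 40.4, 37.1 and 43.6 FPKM in KO_let-7g, 57.5, 47 and 58.3 in KO_siNr6a1, 77.5, 55.9 and 82.2 in KO_siCtrl and 11.8, 13.3 and 15.8 in WT_siCtrl libraries. Every KO library was above every WT_siCtrl library, by 2.30 ± 0.15 in KO_siCtrl (adjusted p = 4.05e-07), and let-7g lowered it by 0.80 ± 0.15 (adjusted p = 0.00145). The skeletal muscle genes Ckm, Myh1, Myh4, Myod1 and Myog were at most 0.0806 FPKM in every library. Mb, the only muscle marker tested beside Acta1, had a mean under 1 FPKM in every group. Mb was not called in KO_siCtrl against WT_siCtrl, where its difference was positive. Nor was Mb called in KO_let-7g against KO_siCtrl, where its difference was negative. Acta1 lay between 23.9 and 31.6 FPKM in KO_siCtrl and between 34.04 and 54.4 in WT_siCtrl libraries, and was lower by 0.57 ± 0.16 (adjusted p = 0.0103) while Eno3 and Pfkm were higher. With let-7g Acta1 fell together with Eno3 and Pfkm, to between 17.0 and 18.9 FPKM in KO_let-7g (-0.55 ± 0.16, adjusted p = 0.0152). The part of a muscle programme in these results was not tested. Eno2, the neuronal form, lay between 5.88 and 11.2 FPKM and was called in no comparison.

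Lactate dehydrogenase turns pyruvate into lactate with its A subunit and favours the reverse with B. Ldha had 741, 710.1 and 751 FPKM in KO_let-7g, 974, 943 and 880.5 in KO_siNr6a1, 1020.0, 969 and 1069 in KO_siCtrl and 760.1, 663 and 698 in WT_siCtrl libraries. KO_siCtrl was above WT_siCtrl by 0.53 ± 0.08, KO_let-7g fell by 0.47 ± 0.08 to levels that overlapped WT_siCtrl, and KO_siNr6a1 was not called against KO_siCtrl (-0.13 ± 0.08; adjusted p = 0.000266, 0.000854 and 0.273). Ldhb moved further, with 62.95, 69.2 and 67.5 FPKM in KO_let-7g, 94.8, 119.7 and 116 in KO_siNr6a1, 104, 103 and 112 in KO_siCtrl and 35.7, 41.1 and 43.4 in WT_siCtrl libraries. It stood 1.39 ± 0.10 higher in KO_siCtrl than in WT_siCtrl (adjusted p = 8.5e-07) and fell by 0.67 ± 0.10 with let-7g (adjusted p = 0.00033), though every KO_let-7g library stayed above every WT_siCtrl library.

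Lactate leaves or enters cells through proton-linked carriers: MCT1 (Slc16a1), a two-way carrier, and MCT4 (Slc16a3), an exporter of glycolytic cells and a HIF-1 target. Slc16a1 had 52.1, 52.6 and 52.9 FPKM in KO_let-7g, 51.5, 52.5 and 50.7 in KO_siNr6a1, 30.2, 27.1 and 27.2 in KO_siCtrl and 20.9, 19.03 and 13.7 in WT_siCtrl libraries. It climbed in 2 steps, 0.65 ± 0.12 in KO_siCtrl over WT_siCtrl, and a further 0.88 ± 0.12 with let-7g and 0.85 ± 0.12 with the Nr6a1 siRNA over KO_siCtrl (adjusted p = 0.000924, 0.00017 and 0.000505). Each step left no overlap. Between the treatments the difference was 0.03 ± 0.12 (adjusted p = 0.88).

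Slc16a3 went opposite ways in the treatments. It had 8.82, 9.08 and 6.39 FPKM in KO_let-7g, 31.4, 37.8 and 25.04 in KO_siNr6a1, 20.8, 19.1 and 20.99 in KO_siCtrl and 13.4, 10.4 and 13.3 in WT_siCtrl libraries. KO_siCtrl was higher than WT_siCtrl by 0.68 ± 0.16 (adjusted p = 0.00413). With let-7g it fell by 1.24 ± 0.16 (adjusted p = 0.000115), below WT_siCtrl (-0.56 ± 0.16, adjusted p = 0.0113), the last being lost with library weights and without replicate 0 of every group (adjusted p up to 0.0802). With the Nr6a1 siRNA it rose by 0.59 ± 0.16 (adjusted p = 0.0182), a call lost without KO_siNr6a1 replicate 1 or KO_siCtrl replicate 1 (adjusted p up to 0.105). Tested directly, KO_let-7g was 1.83 ± 0.16 below KO_siNr6a1 (adjusted p = 1.96e-05), a call that held under every alternative.

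Promoters of 4 genes that the results on lactate and hexose phosphorylation turn on are shown as examples that hold ACGTG. Others hold no ACGTG and are not shown, among them those of Ldhb, Pdk1, Gpi1, Pfkl, Pfkp, Pfkfb4 and Tpi1 and a second one of Ldha. Several of these hold GCGTG instead. HIF-1 binds the core ACGTG, or GCGTG, in hypoxia response elements, and the sequences run from 250 bases before to 50 after a gene's start (RefSeq, GRCm38.p6), on the gene's strand, with each ACGTG or GCGTG on either strand in capitals (CACGT and CACGC on the other strand). The palindrome CACGTG, also an E-box, holds ACGTG on both strands and counts as 2 matches.
Slc16a3 chr11:120948817-120949116, plus strand: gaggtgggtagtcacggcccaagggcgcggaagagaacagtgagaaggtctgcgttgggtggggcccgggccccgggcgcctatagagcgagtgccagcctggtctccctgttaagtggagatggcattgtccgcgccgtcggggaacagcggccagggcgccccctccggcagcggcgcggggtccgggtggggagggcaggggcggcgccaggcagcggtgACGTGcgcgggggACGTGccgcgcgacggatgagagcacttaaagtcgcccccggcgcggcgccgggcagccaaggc
Slc16a1 chr3:104638414-104638713, plus strand: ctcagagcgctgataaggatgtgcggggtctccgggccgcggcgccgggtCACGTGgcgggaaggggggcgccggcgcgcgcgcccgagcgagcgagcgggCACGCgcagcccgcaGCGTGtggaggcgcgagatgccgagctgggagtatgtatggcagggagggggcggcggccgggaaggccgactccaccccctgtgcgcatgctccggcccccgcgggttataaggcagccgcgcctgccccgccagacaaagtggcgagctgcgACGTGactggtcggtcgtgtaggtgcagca
Hk2 chr6:82774405-82774704, minus strand: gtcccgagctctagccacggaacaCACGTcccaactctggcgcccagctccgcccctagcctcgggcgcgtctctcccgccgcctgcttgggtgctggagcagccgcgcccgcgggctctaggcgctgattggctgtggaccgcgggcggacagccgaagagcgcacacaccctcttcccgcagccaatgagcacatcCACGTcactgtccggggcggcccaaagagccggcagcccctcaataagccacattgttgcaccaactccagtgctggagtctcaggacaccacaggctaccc
Ldha chr7:46845554-46845853, plus strand: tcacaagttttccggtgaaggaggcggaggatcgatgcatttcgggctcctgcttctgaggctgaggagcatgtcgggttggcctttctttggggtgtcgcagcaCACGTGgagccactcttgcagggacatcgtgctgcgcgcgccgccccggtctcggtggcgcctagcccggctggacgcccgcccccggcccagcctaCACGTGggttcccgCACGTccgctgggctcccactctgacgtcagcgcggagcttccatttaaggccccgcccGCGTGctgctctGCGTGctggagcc
Slc16a3 held ACGTG with first bases at -27 and -14 from the start, both on its own strand. Slc16a1 held a CACGTG at -200 and an ACGTG at 21, Hk2 held CACGT at -226 and -52, and Ldha held 2 CACGTG, at -145 and -48, and a CACGT at -34. Promoters were found for 36 of the 39 genes, and 25 had ACGTG in at least 1 of theirs. ACGTG was in 28 of their 50 promoters (56.0%), against 25.6% of the 10563 promoters of all tested genes and 19.6% of all 32851 in the table. GCGTG was in 60.0% of them, against 51.4% and 32.4%. The median GC content was 62.1% for the set, 61.0% for tested genes and 52.7% for all. Many of these genes are textbook HIF-1 targets, so the first share describes how the set was chosen and not the cells, and genes with the core moved in both directions with let-7g.

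Pyruvate dehydrogenase kinases keep pyruvate out of the mitochondria, and the 2 in the set were opposed. Pdk1, a HIF-1 target, had 3.42, 3.27 and 2.84 FPKM in KO_let-7g, 3.11, 2.69 and 2.50 in KO_siNr6a1, 2.25, 2.70 and 2.25 in KO_siCtrl and 10.7, 8.99 and 9.16 in WT_siCtrl libraries. Every KO library was below every WT_siCtrl library, by 1.64 ± 0.11 in KO_siCtrl (adjusted p = 3.4e-07). Its rise with let-7g (0.30 ± 0.11, adjusted p = 0.0398) was lost without KO_let-7g replicate 0 or 1 or KO_siCtrl replicate 0 or 2 (adjusted p up to 0.352). Quantile and median-of-ratios scaling also ended that rise. Pdk3 had 27.1, 24.5 and 26.6 FPKM in KO_let-7g, 25.8, 25.6 and 26.8 in KO_siNr6a1, 37.7, 37.8 and 36.9 in KO_siCtrl and 27.9, 26.9 and 28.5 in WT_siCtrl libraries. It was higher in every KO_siCtrl library than in any other library, by 0.42 ± 0.06 over WT_siCtrl, and fell with either treatment (-0.51 ± 0.06 and -0.51 ± 0.06; adjusted p = 0.000196, 8.72e-05 and 0.000226).

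**Figure D4:**
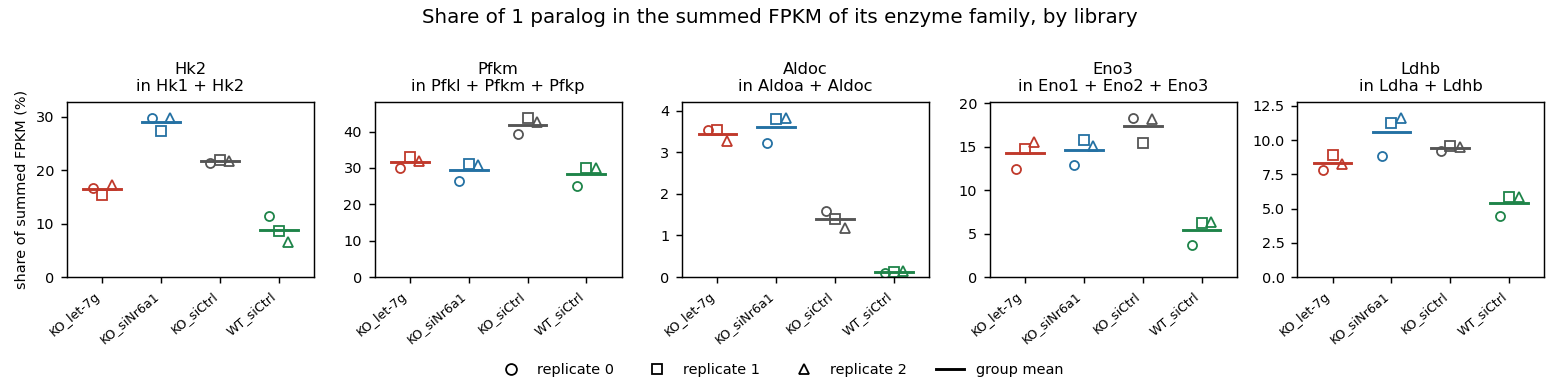
Share of 1 paralog in the summed FPKM of its enzyme family, in percent on a linear axis from 0, with 1 symbol per library and the group mean as a line. The shares of Hk2, Pfkm, Aldoc, Eno3 and Ldhb are higher in all KO_siCtrl libraries than in all WT_siCtrl libraries, and the share of Hk2 is lowest of the KO groups in KO_let-7g and highest in KO_siNr6a1.

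The share of a paralog in the summed FPKM of its enzyme family is given as a description. Eno1, Aldoa and Ldha in these sums have near-identical processed copies, and how shared reads were counted is not stated. The 6 paralogs named are genes already seen to be higher in KO_siCtrl than in WT_siCtrl, so the direction of that change in share was not free, and none of 18 tests of shares passed. Hk2 gave 16.4% ± 0.910 of hexokinase FPKM in KO_let-7g, 28.9% ± 1.44 in KO_siNr6a1, 21.6% ± 0.307 in KO_siCtrl and 8.84% ± 2.43 in WT_siCtrl (SD, n = 3 each). In KO_siNr6a1 against KO_siCtrl, Hk2 itself was not called (0.07), and Hk1 was called lower (-0.47), a call lost in 3 of 17 alternatives. Pfkm gave 31.6% ± 1.55 of phosphofructokinase in KO_let-7g, 29.5% ± 2.63 in KO_siNr6a1, 41.9% ± 2.37 in KO_siCtrl and 28.3% ± 2.88 in WT_siCtrl. Pfkl gave 38.6% ± 2.61 in KO_siCtrl, below Pfkm in replicates 1 and 2 and above it in replicate 0, and 62.5% ± 1.92 in WT_siCtrl, where it led in every library. Pfkp gave 19.4% in KO_siCtrl and 9.26% in WT_siCtrl, and remained at 19.3% in KO_let-7g. Eno3 gave 14.2%, 14.6%, 17.3% and 5.41% of enolase in KO_let-7g, KO_siNr6a1, KO_siCtrl and WT_siCtrl, and Ldhb 8.32%, 10.6%, 9.44% and 5.39% of lactate dehydrogenase. Aldoc stayed a minor aldolase at 3.45%, 3.62%, 1.39% and 0.122%. For each of these 6 paralogs the KO_siCtrl and WT_siCtrl libraries did not overlap, and the two-sided p by exact permutation was 0.1, the smallest that 3 libraries against 3 can give (0.139 adjusted over the 18 tests of shares). All the 38 genes other than Gapdh together took 0.816% to 0.873% of the summed FPKM of a library in KO_let-7g, 1.02% to 1.12% in KO_siNr6a1, 0.996% to 1.12% in KO_siCtrl and 0.743% to 0.851% in WT_siCtrl.

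Of the HIF-1 regulators in the set, Hif1a was highest in KO_siCtrl and Egln1 lowest there. Hif1a, the oxygen-regulated subunit of HIF-1, had 79.5, 82.7 and 58.7 FPKM in KO_let-7g, 89.7, 90.3 and 88.3 in KO_siNr6a1, 116, 126 and 92.4 in KO_siCtrl and 86.7, 81.3 and 74.4 in WT_siCtrl libraries. It was highest in KO_siCtrl, whose libraries all lay above those of the other groups, by 0.45 ± 0.14 over WT_siCtrl (adjusted p = 0.0167), a call lost without KO_siCtrl replicate 0 or 1 or WT_siCtrl replicate 2 (adjusted p up to 0.0811). With let-7g it fell by 0.59 ± 0.14 (adjusted p = 0.00469). The Nr6a1 siRNA gave -0.30 ± 0.14 (adjusted p = 0.124, and 0.0227 with the block).

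Prolyl hydroxylases mark HIF-1 alpha for destruction when oxygen is present. Egln1, the main one, had 38.4, 39.3 and 37.6 FPKM in KO_let-7g, 35.1, 36.9 and 37.1 in KO_siNr6a1, 27.5, 29.4 and 28.6 in KO_siCtrl and 39.9, 41.5 and 36 in WT_siCtrl libraries. It was lower in every KO_siCtrl library than in any other library, at -0.44 ± 0.07 against WT_siCtrl, and rose with let-7g by 0.42 ± 0.07 and with the Nr6a1 siRNA by 0.34 ± 0.07 (adjusted p = 0.00024, 0.000532 and 0.00378). The last was lost without replicate 0 of every group (adjusted p = 0.054). Egln3, a hydroxylase that is itself a HIF-1 target, was too low to be tested, with 0.272, 0.336 and 0.272 FPKM in KO_let-7g, 0.580, 0.538 and 0.490 in KO_siNr6a1, 0.992, 0.9997 and 1.22 in KO_siCtrl and 0.406, 0.383 and 0.702 in WT_siCtrl libraries. Its KO_siCtrl libraries were the highest and its KO_let-7g libraries the lowest of the 12, with no overlap with the rest.

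Hif1an, not among the 39 but among the other pathway genes, encodes FIH, which blocks the activity of HIF-1 alpha. It had 17.8, 18.4 and 14.4 FPKM in KO_let-7g, 66.2, 55.9 and 57.7 in KO_siNr6a1, 50.6, 45.6 and 45.4 in KO_siCtrl and 16.5, 14.3 and 15.3 in WT_siCtrl libraries. KO_siCtrl stood 1.56 ± 0.10 above WT_siCtrl (adjusted p = 4.42e-07), and let-7g brought it down by 1.44 ± 0.10 (adjusted p = 3.48e-06) to levels that overlapped WT_siCtrl. The Nr6a1 siRNA gave a rise of 0.34 ± 0.10 (adjusted p = 0.0322), lost without KO_siNr6a1 replicate 0 or 2 or KO_siCtrl replicate 1 or 2 (adjusted p up to 0.117). The treatments differed by -1.77 ± 0.10 (adjusted p = 3.68e-06). Its 3′ UTR holds 5 let-7 seed matches, shown here because no other gene of the 39 or of the 64 other pathway genes holds more than 2.
Hif1an 7mer-A1: ccgtgtccactTACCTCAagtcccttcctt
Hif1an 8mer, first: ctgttggttctCTACCTCAcctcaagcctt
Hif1an 7mer-A1: tgtttgcaagtTACCTCAccactcaccccc
Hif1an 7mer-m8: tggtaagttccCTACCTCtgttgtctttca
Hif1an 8mer, second: tttgaaaatatCTACCTCAgggttgctgga
They begin at bases 1444, 2210, 3597, 3781 and 5019 of a 3′ UTR of 5116 bases, on chromosome 19. The median 3′ UTR of tested genes had 1179 bases, so this one is long. Of the 64 other pathway genes, 9 held an 8mer or 7mer-m8, where 10.3% of tested genes did. The part of these matches in the fall of Hif1an was not tested.

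**Figure D5:**
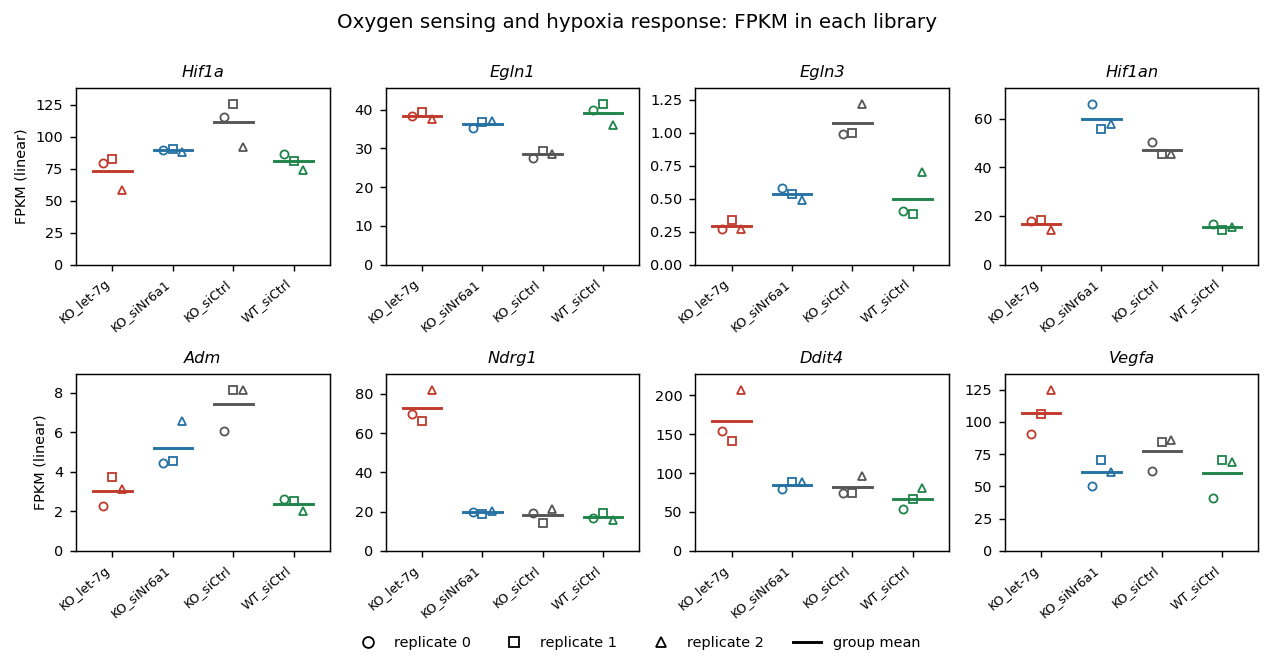
FPKM on a linear axis from 0 for regulators of HIF-1 (top row) and hypoxia response genes (bottom row), with 1 symbol per library and the group mean as a line. Hif1an lies between 14.3 and 18.4 in the KO_let-7g and WT_siCtrl libraries and between 45.4 and 66.2 in the others, and Ndrg1 between 66.1 and 81.9 in KO_let-7g and between 14.1 and 21.4 elsewhere.

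Hypoxia response genes outside metabolism did not move as a block. Adm encodes adrenomedullin, a vessel-widening peptide, and was the one that followed the glycolytic pattern, with 2.29, 3.73 and 3.15 FPKM in KO_let-7g, 4.45, 4.56 and 6.56 in KO_siNr6a1, 6.05, 8.13 and 8.14 in KO_siCtrl and 2.60, 2.52 and 2.03 in WT_siCtrl libraries. KO_siCtrl was 1.31 ± 0.17 above WT_siCtrl and let-7g lowered it by 1.06 ± 0.17 (adjusted p = 7.45e-05 and 0.000511), with no overlap either time. With the Nr6a1 siRNA it differed by -0.45 ± 0.17 (adjusted p = 0.0692, and 0.0368 with the block).

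Ndrg1 and Ddit4 rose instead. Ndrg1, a stress gene induced by low oxygen and by iron shortage, had 69.7, 66.1 and 81.9 FPKM in KO_let-7g, 19.7, 18.9 and 20.3 in KO_siNr6a1, 19.4, 14.1 and 21.4 in KO_siCtrl and 16.8, 19.2 and 15.7 in WT_siCtrl libraries. Only the KO_let-7g libraries stood apart, by 1.94 ± 0.14 over KO_siCtrl (adjusted p = 3.17e-06), and KO_siCtrl was not called against WT_siCtrl (0.06 ± 0.14). Ddit4 encodes REDD1, an inhibitor of mTORC1, and had 155, 142 and 207 FPKM in KO_let-7g, 79.5, 87.9 and 88.2 in KO_siNr6a1, 74.9, 74.6 and 95.9 in KO_siCtrl and 53.6, 66.8 and 80.5 in WT_siCtrl libraries. It too was higher in every KO_let-7g library, by 1.02 ± 0.17 over KO_siCtrl (adjusted p = 0.000584). Vegfa, the vessel growth factor, had 90.96, 106 and 125 FPKM in KO_let-7g, 50.6, 70.5 and 61.3 in KO_siNr6a1, 62.1, 84.5 and 86.3 in KO_siCtrl and 41.3, 70.6 and 68.7 in WT_siCtrl libraries. Its difference with let-7g was 0.46 ± 0.21 (adjusted p = 0.0995, and 0.00321 with the block), and KO_let-7g was above KO_siNr6a1 by 0.81 ± 0.21 (adjusted p = 0.0113).

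The mitophagy receptors Bnip3 and Bnip3l were split. Bnip3l had 39.2, 41.7 and 33.1 FPKM in KO_let-7g, 35.03, 35.1 and 29.1 in KO_siNr6a1, 22.3, 20.6 and 17.97 in KO_siCtrl and 22.8, 25.7 and 21.5 in WT_siCtrl libraries, and rose with no overlap over KO_siCtrl with let-7g (0.87 ± 0.12, adjusted p = 0.000146) and with the Nr6a1 siRNA (0.68 ± 0.12, adjusted p = 0.00167). Bnip3 had 25.3, 25.5 and 18.7 FPKM in KO_let-7g, 28.1, 27.9 and 21.9 in KO_siNr6a1, 28.2, 29.2 and 22.2 in KO_siCtrl and 39.8, 37.2 and 30.4 in WT_siCtrl libraries, and only the WT_siCtrl libraries stood apart, above the rest. Its lower level in KO_siCtrl than in WT_siCtrl (-0.42 ± 0.16, adjusted p = 0.041) was lost without KO_siCtrl replicate 0 or 2 or WT_siCtrl replicate 0 or 1 (adjusted p up to 0.157). P4ha2, a subunit of the hydroxylase that stabilises collagen, had 51.5, 48.02 and 49.6 FPKM in KO_let-7g, 75.6, 76.2 and 65.9 in KO_siNr6a1, 59.7, 54.3 and 61.5 in KO_siCtrl and 62.6, 63.8 and 68.6 in WT_siCtrl libraries. It fell with let-7g by 0.23 ± 0.08 and rose with the Nr6a1 siRNA by 0.30 ± 0.08 (adjusted p = 0.0328 and 0.0136). The fall was lost without any 1 of the KO_let-7g libraries or without KO_siCtrl replicate 0 or 2, and the rise without replicate 0 or 1 of KO_siNr6a1 or replicate 1 of KO_siCtrl (adjusted p up to 0.136). Upper quartile scaling also ended the fall of P4ha2. The paralog P4ha1 had 58.5, 56.3 and 41.2 FPKM in KO_let-7g, 81.3, 70.8 and 60.7 in KO_siNr6a1, 75.8, 66.8 and 59.6 in KO_siCtrl and 89.6, 68.9 and 66.01 in WT_siCtrl libraries. It was called in neither of these comparisons without the block, and was lower in KO_let-7g than in WT_siCtrl by 0.52 ± 0.16 (adjusted p = 0.0183), a call lost without KO_let-7g replicate 2 or WT_siCtrl replicate 0 (adjusted p up to 0.0762). Ankrd37 lay between 1.93 and 4.73 FPKM and was called in no comparison, and Car9, the HIF-1 marker carbonic anhydrase IX, stayed at 0.229 to 0.700 FPKM in all 12 libraries.

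Set directly against KO_siNr6a1, KO_let-7g was lower in many genes of the chain. Of the 37 genes, 18 (48.6%) were lower, where 13.3% of all tested genes were, and 3 (8.11%) were higher, against 27.6% of all. The higher ones were Ndrg1, Ddit4 and Vegfa. After Slc16a3, the largest falls were Hk2 (-0.94 ± 0.18), Pgam1 (-0.89 ± 0.08), Ldhb (-0.71 ± 0.10) and Pfkfb3 (-0.63 ± 0.14), with adjusted p of at most 0.00402. The call of Adm (-0.61 ± 0.17) was lost without KO_let-7g replicate 0 or KO_siNr6a1 replicate 2 (adjusted p up to 0.0668), and 13 of the 21 calls held under every alternative. The lower calls of Slc2a1, Slc2a3, Pfkl, Pfkm, Eno3, Ldha and P4ha1 did not. Slc2a3, which passed the filter through WT_siCtrl alone, was at most 0.359 FPKM in KO_let-7g and 0.646 in KO_siNr6a1, and was lost in 7 of 14 alternatives. The block added Gpi1, Gapdh, Pgk1, Eno1, Bnip3 and Hif1a as lower and Bnip3l as higher, at adjusted p between 0.00621 and 0.0433. Leaving out replicate 0 of every group left 11 lower calls, and Slc2a3 was not tested in that fit. The median was -0.31 for the 37 and 0.12 for all tested genes. Under median-of-ratios scaling it was -0.47 and -0.01, with 3 of the 37 higher and 22 lower, while the whole table had 1973 higher and 2396 lower genes, against 3262 and 1564 as deposited. Quantile scaling gave 2234 and 2070.

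Against WT cells, the treated KO cells differed in what was left. In KO_let-7g against WT_siCtrl, 12 of the 37 (32.4%) were higher and 11 (29.7%) lower, where 35.3% and 22.8% of all tested genes were, with medians of 0.06 and 0.12. Of the 18 genes higher in KO_siCtrl, 7 were still called higher (Hk2, Pfkp, Aldoc, Tpi1, Eno3, Ldhb and Slc16a1), 9 were not called and 2, Pgam1 and Slc16a3, were lower. The block added Slc2a1 and Gpi1 as higher and Pfkfb3 as lower (adjusted p = 0.0186, 0.00558 and 0.038). The 11 lower calls became 6 without replicate 0 of every group, where Slc2a3 no longer passed the filter and was not tested. Hk2 was lost there without KO_let-7g replicate 0 or 2 or WT_siCtrl replicate 1 or 2 (adjusted p up to 0.114). Under median-of-ratios scaling the medians were -0.08 and -0.01, with 10 of the 37 higher and 12 lower and 3117 higher and 3381 lower genes in the whole table, against 4169 and 2696. In KO_siNr6a1 against WT_siCtrl, 17 (45.9%) were higher and 5 (13.5%) lower, where 27% and 27.4% of all were, with medians of 0.39 and -0.01, and 14 of the same 18 genes were called higher. The 5 lower calls became 3 without WT_siCtrl replicate 0 and 2 without replicate 0 of every group. In these fits too Slc2a3 was not tested. These comparisons share the WT_siCtrl libraries with KO_siCtrl against WT_siCtrl. As there, Slc2a3, counted as lower, and Aldoc, counted as higher, passed the filter through WT or KO libraries alone and had to differ.

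Other genes of the pathway, from a list of 64 of which 53 were tested, moved in both directions in each comparison. In KO_siCtrl against WT_siCtrl 15 (28.3%) were higher and 18 (34%) lower, where 29.1% and 25.2% of all tested genes were. In KO_let-7g against KO_siCtrl these were 16 (30.2%) and 12 (22.6%), where 27.5% and 18.2% of all were, and in KO_siNr6a1 against KO_siCtrl 11 (20.8%) and 8 (15.1%), where 13.2% and 16.3% were. In KO_let-7g against KO_siNr6a1 they were 12 (22.6%) and 15 (28.3%), where 27.6% and 13.3% were. In KO_siCtrl against WT_siCtrl the VEGF receptor Flt1 (2.51 ± 0.12), the carbonic anhydrase Car12 (1.99 ± 0.19) and the oxidase Ero1l (1.61 ± 0.16) rose most, and endothelin Edn1 (-2.98 ± 0.28) and the stanniocalcins Stc1 (-1.95 ± 0.31) and Stc2 (-1.89 ± 0.16) fell most. Flt1 was at most 0.255 FPKM in every WT_siCtrl library, and Edn1, Stc1 and Stc2 were at most 0.199 in every KO_siCtrl library, so these differences depend on the pseudocount. On the log2(FPKM + 0.1) scale they were 4.25 for Flt1, -4.96 for Edn1, -4.81 for Stc1 and -4.70 for Stc2. These 4 genes reached an FPKM of 1 in only 1 genotype, so they too had to differ. With let-7g, Txnip, which curbs glucose uptake, rose by 1.59 ± 0.18, with means of 33.9 ± 7.59 FPKM in KO_let-7g and 10.4 ± 0.834 in KO_siCtrl libraries. Heme oxygenase Hmox1 (1.12 ± 0.25) and the ubiquitin ligase Siah2 (1.001 ± 0.16) followed, and after Hif1an the largest falls were Angptl4 (-1.26 ± 0.10) and Pfkfb1 (-1.08 ± 0.12). With the Nr6a1 siRNA the collagen modifier Plod2 (1.36 ± 0.21), Pdk4 (0.88 ± 0.16) and the collagen crosslinker Lox (0.88 ± 0.19) rose most, and Bpgm (-0.84 ± 0.10), Higd1a (-0.76 ± 0.09) and Pgf (-0.65 ± 0.17) fell most. Lox was lost without replicate 0 of every group, and Pgf also without KO_siNr6a1 replicate 0 or KO_siCtrl replicate 1 (adjusted p up to 0.091). Between the treatments, Txnip (2.04 ± 0.18), Hmox1 (1.37 ± 0.25) and Pgam2 (0.91 ± 0.19, 1.58 on the log2(FPKM + 0.1) scale) were the highest in KO_let-7g and Hif1an, Lox (-1.09 ± 0.19) and Pfkfb1 (-1.03 ± 0.12) the lowest. Adjusted p of these named differences was at most 0.0136.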

How the data were processed

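RNA of 12 libraries, 3 in each of 4 groups, was sequenced. The deposited FPKM values were made by the authors with TopHat 1.2.0 and Cufflinks 1.0.3 on mouse build mm9, per the submitters' processing notes; no count is given, so absolute depth is unknown, and the handling of strand and of reads shared by several loci is not stated. Values were taken as log2(FPKM + 1), genes with an FPKM of 1 or more in 3 or more libraries were kept, and all 4 groups were fitted together with limma 3.58.1 in R 4.3.3 (intensity trend, 8 residual degrees of freedom, Benjamini-Hochberg adjustment over all 11801 genes, threshold 0.05). Differences are on that log2 scale, with standard errors, and understate changes of low genes.

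Members, gene lists and tests were chosen with earlier results of these data known. Every member is described, with each library's value where a call reached 0.5 (up to 10 in each direction); of the other pathway genes, the 3 called highest and the 3 called lowest in a comparison are named. Deviations of libraries with the same replicate number correlated at 0.127 to 0.465 in 5 of the 6 comparisons, above the limit of 0.1 set for a pairing, which comes from the data and not from the labels. Seed matches were searched in GENCODE 3′ UTRs and promoter motifs in RefSeq sequences of GRCm38, not the build of the FPKM values, and matched by symbol. The fit was tested on simulated data, and 17 alternatives were run: other pseudocount, filters, scalings, weights, the block, only the groups compared and libraries left out.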

Additional observations from a re-analysis of the deposited data

Results flagged for a closer look

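Slc16a3 moved in opposite directions in the treatments: its difference from KO_siCtrl was -1.24 with let-7g and 0.59 with the Nr6a1 siRNA, and KO_let-7g against KO_siNr6a1 was -1.83 by limma (adjusted p = 1.96e-05), with every KO_let-7g library below every KO_siNr6a1 library. P4ha2 did the same to a smaller extent, at -0.23 and 0.30 against KO_siCtrl and -0.53 between the treatments (adjusted p = 0.000378), again with no overlap. For both genes the difference between the treatments held under every alternative, as did the fall of Slc16a3 with let-7g. The rise of Slc16a3 was lost in 4 of 17 alternatives, the fall of P4ha2 in 7 and its rise in 4.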

How the results depend on the processing

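With a mean FPKM of at least 5 required, the counts of lower genes were 2 in KO_siCtrl against WT_siCtrl, 7 in KO_let-7g against WT_siCtrl and 2 in KO_siNr6a1 against WT_siCtrl, since low genes such as Slc2a3 were no longer tested. Library weights gave 7 lower in KO_siNr6a1 against KO_siCtrl, with 5528 of all genes called against 3474, and 6 higher in KO_let-7g against KO_siNr6a1. The replicate block gave 8 lower and 5248 of all genes in KO_siNr6a1 against KO_siCtrl; it took away no call of the 37 genes in any comparison. In KO_siNr6a1 against WT_siCtrl, where 1 correlation of 0.0915 missed the pairing limit, the block gave 21 higher and 6 lower. Leaving out 1 library, or replicate 0 of every group (chosen after seeing the data), gave 3 to 5 lower in KO_siCtrl against WT_siCtrl, 3 to 8 higher and 2084 to 2783 of all genes in KO_siNr6a1 against KO_siCtrl, 11 to 15 lower in KO_let-7g against KO_siNr6a1, 6 to 11 lower in KO_let-7g against WT_siCtrl and 2 to 5 lower in KO_siNr6a1 against WT_siCtrl. The lowest of each was reached without replicate 0 of every group. That fit drops a library from each of the 4 groups where the others drop 1, so it had fewer libraries to call with. Slc2a3 was not tested in it, nor in fits without a WT_siCtrl library, which lowers the counts against WT_siCtrl. The part of replicate 0 itself was not tested. Without KO_siCtrl replicate 0, the Gapdh difference was -0.021 against WT_siCtrl and 0.26 in KO_let-7g against KO_siCtrl; over all such fits it spanned -0.021 to 1.61 and -1.38 to 0.26. FPKM gives no counts, so no limit of detection can be stated for Car9 and Egln3.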
